A study of Mus musculus with 10 samples.

Results

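The nuclear genes for the respiratory chain and the ATP synthase encode most subunits of the 5 protein complexes of the inner mitochondrial membrane that make ATP from NADH, succinate and oxygen. The genes were taken by symbol: the Nduf genes with an a, b, c, s or v subunit number (complex I, 37 genes), Sdha to Sdhd (complex II, 4 genes), the Uqcr genes (complex III, 8 genes), the Cox4 to Cox8 genes with a letter a to c after the number (complex IV, 16 genes) and the Atp5 genes (complex V, 17 genes). This gave 82 genes with 111 probes, out of 20972 named genes and 55681 probes on the array, and 22 of the 82 had several probes. Ndufb1, Ndufb4b and Ndufb4c match the same symbols and had no probe. The symbol rule does not take in Cox4i1, Cox4i2, Cyc1, Cycs or Ndufab1, whose values are given with the other mitochondrial genes.

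The RNA came from LSK cells, the bone marrow fraction without lineage markers and with Sca-1 and c-Kit that holds stem cells and early progenitors, and was put on 10 Agilent one-colour arrays, with 0.02 ug per array. All mice were C57BL/6, all cells were sorted for the donor marker CD45.2 after transplantation, and all donors carried a tamoxifen-inducible Cre (Cre-Ert) and were given tamoxifen. WT was Cre-Ert alone, and KO was Cre-Ert;Ezh2fl/fl, in which tamoxifen deletes Ezh2, the enzyme of Polycomb repressive complex 2 that methylates lysine 27 of histone H3. There were 1 WT and 1 KO array labelled 3 months, both without disease, and, labelled 9-12 months, 1 WT array without disease, 2 KO arrays with myelodysplastic syndrome (MDS), 3 with MDS/MPN, a disease with features of MDS and of myeloproliferative neoplasm, 1 with disease not determined and 1 of mixed diseases. The label of MDS/MPN replicate 1 adds TC and the source of replicate 3 adds CMMoL. The 6 KO arrays with 1 disease label each carry a code of their own and are treated here as 6 separate samples. The labels do not say which arrays hold pooled mice or that samples came from separate mice, so p-values measure only the spread between these samples, which may be technical.

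Ezh2 RNA does not tell the genotypes apart on these arrays. Its log2 level over the 75th percentile of the array was 2.63 and 2.14 on the WT arrays of slides 2 and 1, while the 8 KO arrays had 2.13 to 3.35, and the sources used here do not say whether the probe lies in the deleted exons. Slide 1 held both arrays labelled 3 months and slide 2 the other 8. The deposited value table carries the time labels of 4 arrays exchanged against the scanner files, so statements on either time rest on the labels of the scanner files, which are used throughout. The share of probes well above background was 32.5% to 47.5%, and the 75th percentile was 78.7 to 301.7 intensity units, with MDS/MPN replicate 2 at the top of both ranges. The LSK markers Ly6a (Sca-1) and Kit were well above background on all 10 arrays.

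Complex I (NADH dehydrogenase) and complex II (succinate dehydrogenase) pass electrons to ubiquinone, complex III hands them to cytochrome c, complex IV (cytochrome c oxidase) gives them to oxygen, and complex V, the ATP synthase, uses the proton gradient that complexes I, III and IV build. Most subunits are encoded in the nucleus, several subunits of complex IV have isoform genes for muscle or testis, and complex II alone has no subunit encoded by mitochondrial DNA. Resting blood stem cells are known to rely little on respiration, which becomes more active as progenitors differentiate.

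Of the 82 genes, 78 were well above background on all 10 arrays. The exceptions were tissue isoforms. Cox8c and Cox7b2, known from testis, and Ndufa4l2, a paralogue of Ndufa4 induced by low oxygen, were well above background on 0 of the 10 arrays. Cox8b, the heart and skeletal muscle form of subunit 8, was so on 1 array, the mixed KO array, at -1.80 (log2 over the 75th percentile). For these 4 genes no differences are given, and the counts below are over the 78 genes, none of which entered through a group in which it was high.

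The genes of all 5 complexes were high on the same arrays and low on the same arrays, and the arrays of 1 genotype did not sit together. Levels are log2 intensity over the 75th percentile of the array, and differences are taken gene by gene from the WT array of slide 2. The median difference of the 78 genes was 0.06 on the mixed KO array and 0.05 and -0.41 on the MDS arrays 1 and 2. On the MDS/MPN arrays 1, 2 and 3 it was 0.75, -0.71 and 0.86, and on the undetermined array 1.0. On slide 1 it was 0.09 on the WT array and 0.89 on the KO array. High arrays were thus the slide 1 KO, MDS/MPN 1 and 3 and the undetermined array, and the low ones MDS 2 and MDS/MPN 2. The signal level of the arrays is set beside this split, and its part in it was not tested. The 75th percentile was 78.7, 89.4, 96.8 and 92.4 intensity units on the 4 high arrays and 143.2 and 301.7 on the 2 low ones. It was 144.8 on MDS 1, 123.8 on the mixed array, and 120.4 and 94.3 on the WT arrays of slides 2 and 1. Within each slide the high arrays thus had the lowest 75th percentiles, and on slide 2 MDS/MPN 2 had the highest. MDS 1, with a gene median of 0.05, was close to MDS 2 in signal. The slide 1 WT array, with a gene median of 0.09, lay within the signal range of the high arrays. The MDS/MPN group spanned nearly the whole range.

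The number of genes above the WT array of slide 2 went with the medians. It was 76, 3 and 76 of 78 on MDS/MPN arrays 1, 2 and 3, 77 on the undetermined array, 53 and 6 on MDS arrays 1 and 2 and 60 on the mixed array. Over the 14298 features detected (well above background) on all 10 arrays, the median difference ran the same way with a smaller range, from -0.33 on MDS/MPN array 2 to 0.32 on the undetermined array. Relative to that median the genes stood 0.58, -0.38 and 0.67 from WT on MDS/MPN arrays 1, 2 and 3, 0.68 on the undetermined array, 0.64 on the slide 1 KO array and -0.31 on MDS array 2.

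**Figure D1:**
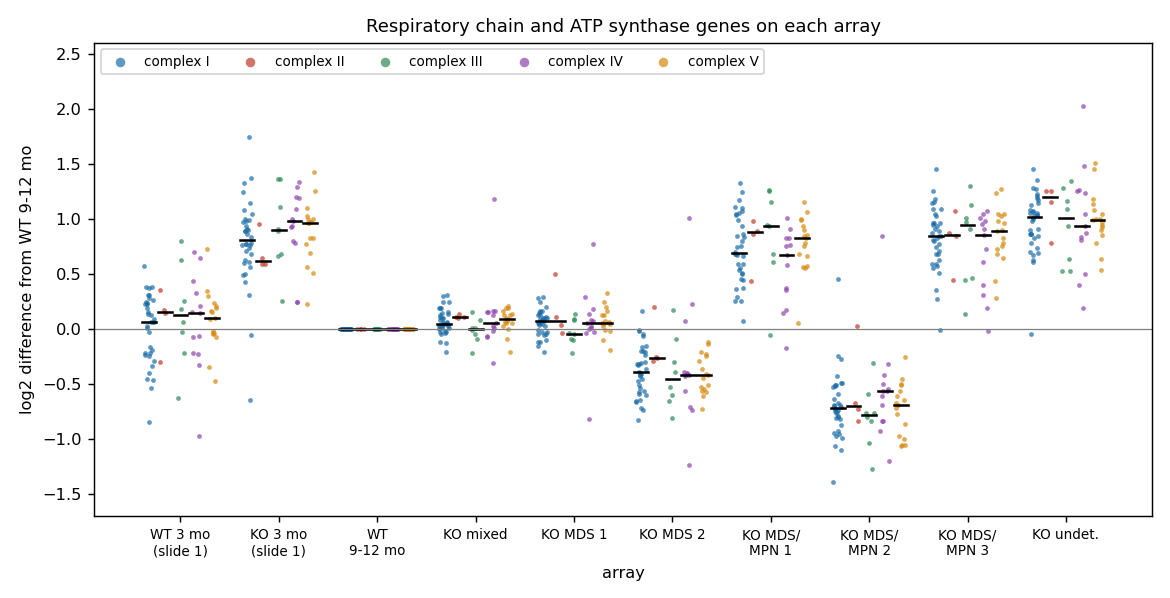
Differences in log2 level from the WT array of slide 2 (vertical axis) for the 78 genes well above background on every array (points, coloured by complex), with the median of each complex as a bar, on each of the 10 arrays. The bars of the 5 complexes lie close together on every array, between 0.92 and 1.20 on the undetermined array and between -0.79 and -0.57 on MDS/MPN array 2.

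Each complex gave nearly the same profile. On the undetermined array the medians of complexes I to V were 1.02, 1.20, 1.01, 0.92 and 1.0. On MDS/MPN array 2 they were -0.72, -0.70, -0.79, -0.57 and -0.69, and on MDS array 2 -0.40, -0.26, -0.46, -0.41 and -0.42. The 4 genes of complex II thus had medians near those of the complexes that also need subunits from mitochondrial DNA. No test of a difference between complexes was made.

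The size of these shifts depended on the scaling, and their direction did not on the arrays that stood apart. With quantile normalization the medians were 0.26, -0.32 and 0.35 on MDS/MPN arrays 1, 2 and 3, 0.34 on the undetermined array, 0.29 on the slide 1 KO array and -0.25 on MDS array 2. Scaled to the 75th percentile of the probes detected on all arrays they were 0.47, -0.46, 0.53, 0.52, 0.55 and -0.29 on the same arrays. Normexp background correction with quantile normalization gave 0.25, -0.32, 0.33, 0.34, 0.26 and -0.27. The slide 1 WT array, at 0.09, turned to -0.02 with quantile normalization and -0.06 with normexp. Of the 78 genes, 63, 12 and 65 were above WT on MDS/MPN arrays 1, 2 and 3 after quantile normalization.

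**Figure D2:**
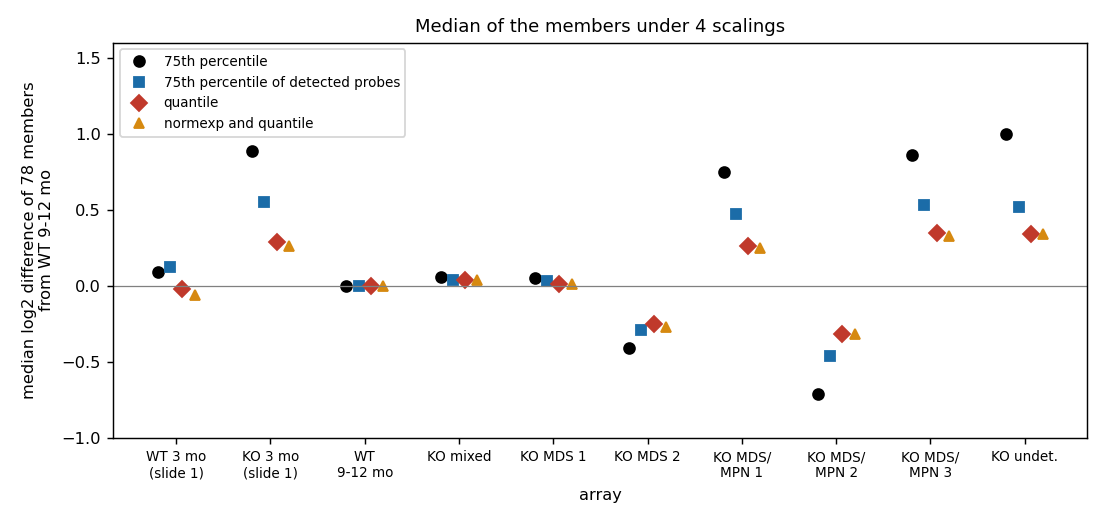
Median log2 difference of the 78 genes from the WT array of slide 2 (vertical axis) on each array (horizontal axis) under 4 scalings (symbols). Quantile normalization brings the undetermined array from 1.0 to 0.34 and MDS/MPN array 2 from -0.71 to -0.32, and each keeps its side of 0.

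Markers of other cells moved with the arrays too. Of 14 erythroid markers, 10 were well above background on each WT array, 13 on each MDS array, 10 to 13 on the MDS/MPN arrays and 14 on the undetermined array. Their summed level, in multiples of the 75th percentile, was 76.4 and 125 on the WT arrays, 79.4 on the mixed, 108 on the slide 1 KO, 280 and 452 on the MDS, 52.4 to 384 on the MDS/MPN and 621 on the undetermined array. Within MDS/MPN the erythroid sums were 384, 52.4 and 248 on arrays 1, 2 and 3, low on the same array as the respiratory genes, while MDS array 2 had a higher erythroid sum (452) and lower respiratory genes than WT. Sums are carried by the brightest markers, and over the 9 erythroid markers compared gene by gene the reading differed. Their median difference from the WT array of the same slide was 2.24 on the slide 1 KO array (7 of 9 above WT), 1.4 and 1.23 on MDS 1 and 2, 3.37, 0.55 and 2.77 on MDS/MPN 1, 2 and 3, 3.89 on the undetermined and 0.24 on the mixed array, so that no KO array had a median below WT.

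Of 10 LSK markers, 8 to 10 were well above background on every array, with sums of 449 and 541 on the WT arrays, 541 on the mixed, 478 on the slide 1 KO, 481 and 517 on the MDS, 239 to 274 on the MDS/MPN and 280 on the undetermined array. Here too the sum and the median differed on slide 1, where the median of 8 markers was -1.23 against the WT array of that slide, with 5 of 8 at least 2-fold lower. The LSK medians were 0.05 and -0.07 on MDS 1 and 2, -1.30, -0.99 and -1.46 on MDS/MPN 1, 2 and 3, -1.54 on the undetermined and -0.38 on the mixed array. They were thus low on the 4 arrays with high respiratory genes and also on MDS/MPN 2.

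Of 11 neutrophil granule markers, 8 to 11 were well above background, with sums of 1101 and 327 on the WT arrays of slides 2 and 1. The sums were 2794 on the slide 1 KO array, 2884 and 4095 on MDS/MPN 1 and 3 and 4452 on the undetermined array, and 1661, 1066, 1344 and 830 on MDS 1, MDS 2, MDS/MPN 2 and the mixed array. The 4 arrays with high respiratory genes thus had the 4 highest neutrophil sums. By the median of 8 markers against WT of the same slide this order did not hold, with 1.5, 1.5, 3.72 and 2.22 on those 4 arrays and 2.17, 1.12, 2.54 and 0.04 on the others. The part of these cells, and of the signal level of each array, in the respiratory gene levels was not tested. In RNA from a sorted population, fewer cells of a type and less RNA per cell cannot be told apart.

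At 9-12 months, 0 of the 78 genes passed the test of the 6 KO arrays against the 1 WT array of their slide (limma, Benjamini-Hochberg adjusted over 19597 features, of which 115, or 0.587%, passed, 1 higher and 114 lower in KO). Of the 78 genes, 0 had an unadjusted p under 0.05, and the lowest adjusted p was 0.9999. Above the WT array on all 6 KO arrays were 3 genes (Cox6a2, Ndufa10 and Sdha), against 9.29% of the features. The median difference was 0.27, with 68 genes positive, against -0.01 and 48.8% positive over all features tested. Over the 14407 features well above background on every compared array, as the genes were, it was 0.05, with 55.1% positive. By complex I to V the medians were 0.25, 0.36, 0.24, 0.25 and 0.27, with 31 of 36, 4 of 4, 7 of 8, 10 of 13 and 16 of 17 genes positive. The spread of the genes' median between the KO arrays was 0.72 (SD, n = 6), larger than the difference itself. For the 1 WT array the spread of the KO arrays was assumed.

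This median leaned on which KO arrays were taken. It was 0.46 without MDS/MPN replicate 2 and 0.15, 0.14 and 0.12 without MDS/MPN replicate 1, MDS/MPN replicate 3 and the undetermined array. The WT array shares its line of the slide with the MDS arrays alone among the 6, and with only those 2 KO arrays the median was -0.16, with 10 of 78 genes positive. With quantile normalization it was 0.06, with 50 positive.

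For the 7 catalytic and core genes (Ndufs1, Ndufv1, Uqcrfs1, Uqcrc1, Cox5a, Atp5a1 and Atp5b), each difference at 9-12 months was smaller than its standard error. Ndufv1, the complex I subunit that binds NADH and FMN, was at 6.79 on the WT array and at 6.02, 7.31 and 7.91 as the lowest, median and highest of the 6 KO arrays, a difference of 0.39 ± 0.74 (SE). The KO arrays lay on both sides of WT. Ndufs1, the iron-sulfur subunit next to it in the chain, was at 4.90 on WT and 4.42 to 5.45 on KO (-0.04 ± 0.46). On the undetermined array, where most of the genes were high, it read 4.85. Ndufb10 and Ndufa10, accessory subunits of the membrane arm, had the largest differences of complex I, 0.63 ± 0.78 and 0.63 ± 0.48, and Ndufa4 and Ndufa3 the smallest, -0.15 ± 0.63 and -0.04 ± 0.67. Ndufa4, once counted to complex I, is now known as a subunit of complex IV.

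In complex II, Sdha, the flavoprotein that oxidises succinate, was at 4.80 on WT and 4.82, 5.24 and 5.58 (lowest, median, highest) on the 6 KO arrays, all above WT (0.40 ± 0.42, adjusted p = 0.9999). Sdhb, the iron-sulfur subunit, ranged from 6.23 to 8.11 around 6.96 in WT, and the membrane anchors Sdhc and Sdhd from 3.89 to 5.82 around 4.57 and from 5.34 to 7.43 around 6.18. The differences of these 3 genes were 0.37 ± 0.75, 0.35 ± 0.71 and 0.31 ± 0.76. The SD of Sdha over the 10 arrays was 0.26, against 0.65 for Sdhb.

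In complex III, Uqcrfs1, the Rieske iron-sulfur protein, was at 5.27 on WT and 4.68, 5.82 and 6.55 on KO (0.48 ± 0.68). Uqcrq, a small subunit of the complex, differed by 0.39 ± 0.89 and the core proteins Uqcrc1 and Uqcrc2 by 0.37 ± 0.81 and 0.09 ± 0.59. Uqcrb, which sits near the ubiquinone site, had the lowest difference, -0.11 ± 0.51. In complex V, Atp5a1 and Atp5b, the alpha and beta subunits of the catalytic head, differed by 0.30 ± 0.61 and 0.45 ± 0.68. Atp5b ran from 8.0 on MDS/MPN array 2 to 9.64 on the undetermined array, with WT at 8.46. The lowest differences of the complex were those of Atp5j, coupling factor 6 of the stalk, -0.01 ± 0.52, and Atp5pb, the peripheral stalk subunit b, 0.08 ± 0.56.

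**Figure D3:**
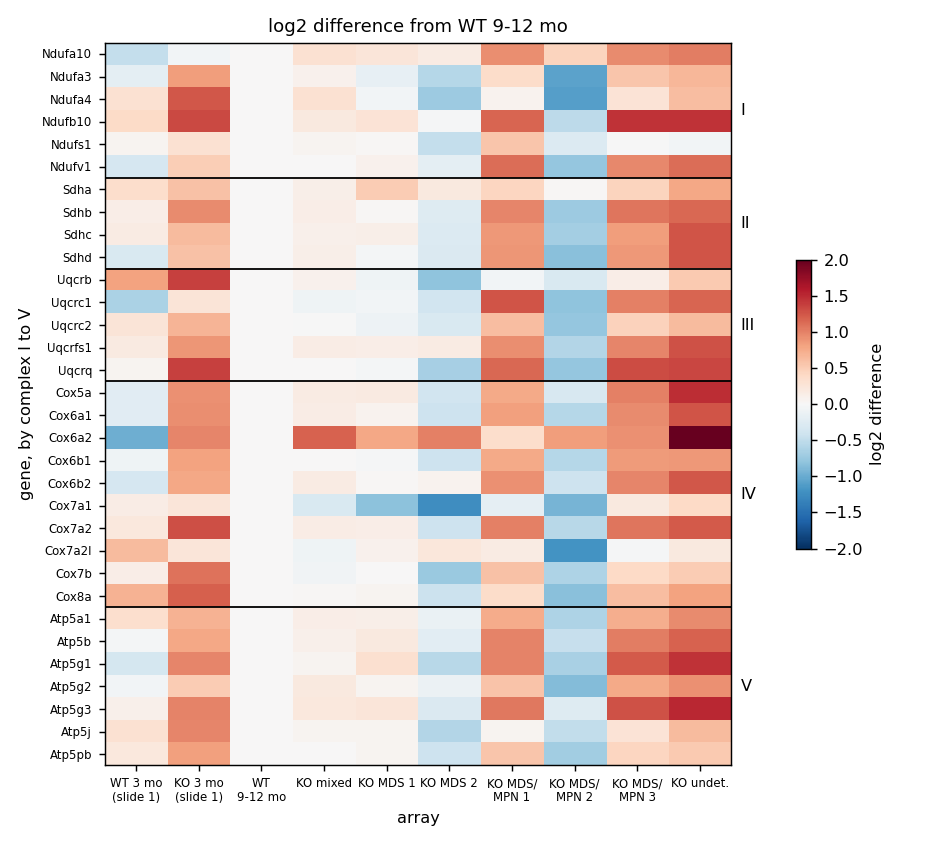
Differences in log2 level from the WT array of slide 2 (colour, blue below and red above) for the 32 genes named by rule (rows, ordered by complex I to V) on the 10 arrays (columns). The columns of the slide 1 KO, MDS/MPN 1 and 3 and undetermined arrays are mostly red and those of MDS 2 and MDS/MPN 2 mostly blue, and rows that depart from their column include Cox6a2, Cox7a1, Cox7a2l, Ndufa10 and Uqcrb.

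The 3 genes for the c-ring of the ATP synthase, Atp5g1, Atp5g2 and Atp5g3, encode the same mature protein with different import sequences. Atp5g1 was at 7.94 on the WT array of slide 2 and ran over the 6 KO arrays from 7.29 to 9.39 with a median of 8.60, Atp5g2 from 8.28 to 10.07 around 9.15 in WT, and Atp5g3 from 7.16 to 8.96 around 7.45. All 3 were highest on the undetermined array and below WT on both MDS array 2 and MDS/MPN array 2. Their differences were 0.47 ± 0.83, 0.21 ± 0.65 and 0.59 ± 0.74.

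Complex IV held several genes whose values differed from the common profile. Cox6a2, the isoform of subunit 6a known from heart and skeletal muscle, was at 1.68 on the WT array of slide 2 and at 2.45 and 2.69 on MDS arrays 1 and 2, 2.03, 2.52 and 2.59 on MDS/MPN arrays 1, 2 and 3, 3.70 on the undetermined and 2.86 on the mixed array. On slide 1 it was at 0.70 in WT and 2.66 in KO. All 8 KO arrays were above the WT array of their slide, and all were above both WT arrays. Cox6a1, the form of most tissues, was at 9.17 on the WT array of slide 2 and at 8.60, 9.61 and 10.43 (lowest, median, highest) on the 6 KO arrays, on both sides of WT, as were the respiratory genes in general.

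The difference of Cox6a2 was 0.98 ± 0.58 at 9-12 months (SE, 6 KO and 1 WT array, limma adjusted p = 0.9999). Over all 8 KO and both WT arrays, with the slide as a block, it was 1.36 ± 0.43 (unadjusted p = 0.00993, limma adjusted p = 0.652 over 22365 features). Neither passed the test. At 9-12 months it was 0.91 with quantile normalization, 0.86 with the percentile of detected probes, 0.78 with normexp, and 1.97 under the time labels of the value table, where the slide 1 WT array takes the place of the other. With the 2 KO arrays in the slide line of WT it was 0.89. The muscle markers Ckm, Tnnt2, Acta1 and Myh7 had signal well above background on 1, 0, 0 and 3 arrays. Siglech, a gene of plasmacytoid dendritic cells, and Irf8, both from the list of monocyte, macrophage and dendritic markers, were named after their values were seen. They were well above background on all 10 arrays. Siglech was at 7.67 and 8.36 in WT and 7.22 to 7.85 on the 6 KO arrays, and its difference over all 8 KO and both WT arrays was -0.09 ± 0.28. Irf8 was at 4.75 and 2.25 on the WT arrays of slides 2 and 1. It was at 5.42 on the slide 1 KO array and at 4.64 to 6.71 on the 6 KO arrays. Irf8 and Cox6a2 were both highest on the undetermined array. MDS/MPN array 1, with the lowest Cox6a2 (2.03), had Irf8 at 5.74, and MDS array 2, with the lowest Irf8 of the 6 (4.64), had Cox6a2 at 2.69. The difference of Irf8 over all 8 KO and both WT arrays was 1.55 ± 0.63 (limma adjusted p = 0.829). The 9 monocyte, macrophage and dendritic markers summed to 266 and 353 in WT and 266 to 465 on the 8 KO arrays. Siglech is a bright marker in these sums, and the median of 6 markers against WT of the same slide read differently. It was 1.81 on the slide 1 KO array, 1.92 on the undetermined and -0.18 on the mixed array. On MDS 1 and 2 it was 0.18 and 0.03, and on MDS/MPN 1, 2 and 3 it was 0.74, 0.30 and 0.80. The part of these cells in the level of Cox6a2 was not tested.

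Cox7a1, the muscle form of subunit 7a, was at 0.33 and 0.48 on the WT arrays of slides 2 and 1. It was at -0.49 and -0.91 on MDS arrays 1 and 2, 0.15, -0.60 and 0.52 on MDS/MPN arrays 1, 2 and 3, 0.73 on the undetermined, 0.02 on the mixed and 0.57 on the slide 1 KO array. MDS and MDS/MPN values overlapped, and its difference at 9-12 months, -0.42 ± 0.65, was the lowest of complex IV. Cox7a2, the form of most tissues, followed the other genes, from 5.71 on MDS/MPN array 2 to 7.49 on the undetermined array with WT at 6.26 (0.41 ± 0.74). Cox7a2l, also known as SCAF1, joins complexes III and IV into supercomplexes, and C57BL/6 mice are known to carry a shortened form of it. Of its 6 KO values, 5, at 8.25 to 8.49, lay close to WT at 8.27. The remaining value, 7.07 on MDS/MPN array 2, made the difference -0.09 ± 0.58, against 0.13 without that array.

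Cox6b2, known as the testis form of subunit 6b, was well above background on all arrays and moved with Cox6b1, the form of most tissues. The 2 genes were at 2.93 and 4.51 on the WT array of slide 2 and highest on the undetermined array, at 4.18 and 5.38, with differences at 9-12 months of 0.47 ± 0.65 and 0.25 ± 0.65. Cox5a, a subunit on the matrix side, differed by 0.46 ± 0.71, Cox7b by 0.02 ± 0.59 and Cox8a, the common form of subunit 8, by 0.09 ± 0.63.

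**Figure D4:**
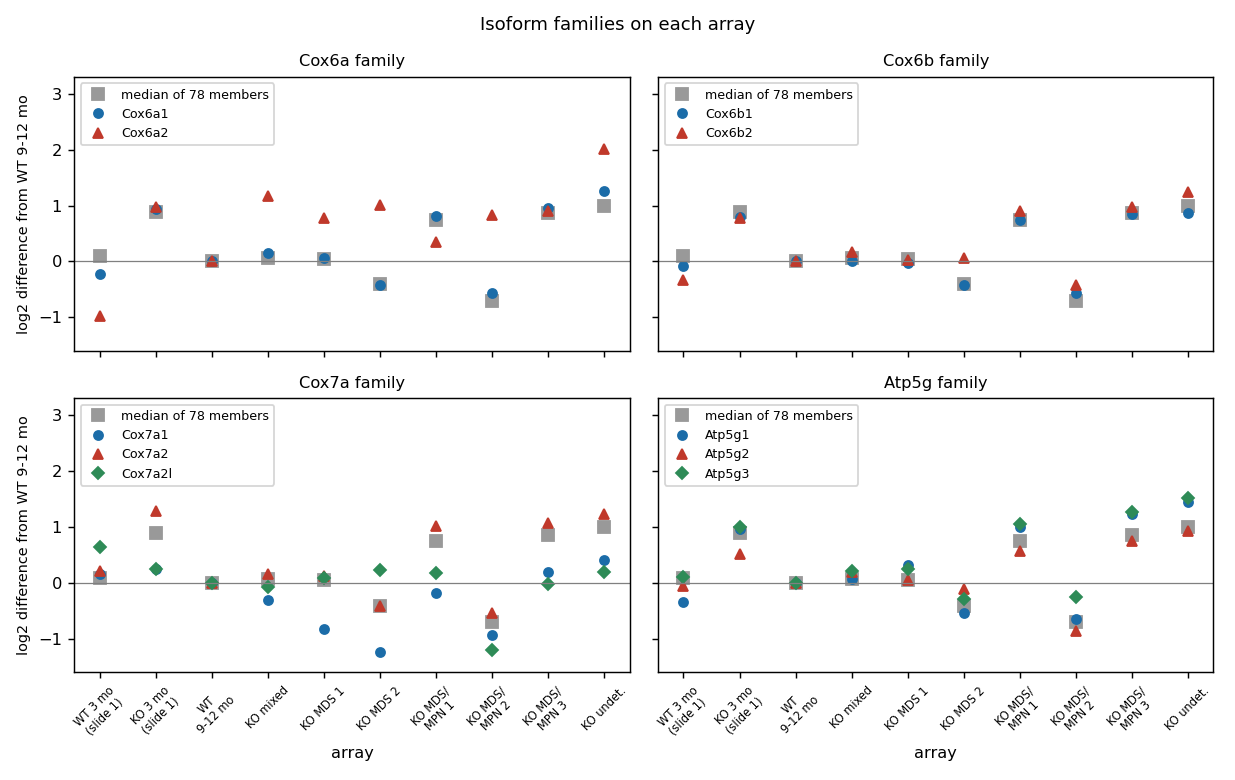
Differences in log2 level from the WT array of slide 2 (vertical axis) for 4 isoform families (panels) on each array, with the median of the 78 genes as grey squares. Cox6a2, at levels of 2.03 to 3.70 on the 8 KO arrays and 1.68 and 0.70 in WT, lies above 0 on every KO array, while Cox6b1 lies near the squares.

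Over all 8 KO arrays, 3 of 78 genes were above the WT array of their own slide on every array, namely Cox6a2, Ndufa10 and Sdha, against 5.45% of the 22365 features tested, and 0 were below it on every array, against 5.47%. The 3 are fewer than the background share gives. Ndufa10 was at 3.29 and 2.82 on the WT arrays of slides 2 and 1, at 3.45 to 4.32 on the 6 KO arrays with a median of 3.98, at 3.60 on the mixed and at 3.23 on the slide 1 KO array. After quantile normalization, normexp or the percentile of detected probes the 3 genes were Cox6a2, Ndufa10 and Ndufs3, so that Sdha left the count and Ndufs3, a core subunit of complex I named after its values were seen, entered it. In the test of all 8 KO against both WT arrays, 0 of 78 genes and 0 of 22365 features (0%) passed (limma), with 1 gene, Cox6a2, at an unadjusted p under 0.05, as were 424 features higher and 814 lower in KO. The median of the genes was 0.44, with 76 positive, against 0.03 and 53.3% for all features. Over the 14298 features detected on every array, as the genes were, it was 0.13, with 64.6% positive. The genes' median varied by 0.65 (SD) between arrays. The median difference was 0.81 without the WT array of slide 2. With the slide as a block, that value rests on the 1 KO and 1 WT array of slide 1 alone. Without either the WT or the KO array of slide 1 it was 0.23, and then rests on slide 2 alone, with 1 WT array.

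The promoters of the genes were searched for short motifs, and the counts are set beside those of other genes. RefSeq windows of GRCm38.p6, from 250 bases before to 50 after the start of the gene, were at hand for 68 of the 82 genes. Among the others were Atp5a1, Atp5mpl, Cox6a2, Cox6c, Cox8c, Ndufa2, Ndufa4l2, Ndufb9, Ndufs1, Sdhc, Uqcrb, Uqcrc2 and Uqcrq. Each window was searched on both strands for CGCNTGCGC, the core of the site of NRF1, a factor known to regulate respiratory genes, for CCGGAAG, read by ETS factors such as GABP, for AAGATGGC, read by YY1, and for TATAAA, the TATA box. Atp5c1, Atp5d, Atp5j, Ndufa5 and Ndufa7 had a second window, and a gene was counted if any of its windows held the motif. CGCNTGCGC stood in 20 of the 68 genes (29.4%), against 7.03% of all 27025 genes with a window and 16.3% of the 7870 genes well above background on all arrays. CCGGAAG stood in 17 (25%), against 9.93% and 22.1%, and AAGATGGC in 10 (14.7%), against 3.19% and 5.73%, while TATAAA stood in 8 (11.8%), against 15.7% and 8.54%. No 2 of the first 3 motifs overlapped in the windows of the 68 genes, and 39 of the 68 genes held at least 1 of those 3, against 37.7% of the measured genes. By complex I to V, CGCNTGCGC stood in 8 of 32, 2 of 3, 2 of 5, 1 of 13 and 7 of 15 genes. A match is a description of letters, not a bound site.

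The 250 bases before the start are given for 5 genes, each on its own strand from 5′ to 3′, with matches of the first 3 motifs in capitals. Cox6a1 was taken as 1 of the genes that followed the common course, and Sdha and Ndufa10 as genes above WT on all 8 KO arrays. Cox7a1 had the lowest difference of complex IV, and Cox8b was well above background on 1 array. Cox6a1 alone of the 13 complex IV genes with a window held CGCNTGCGC. Of other genes near the common course, Cox7a2 held none of the first 3 motifs and Cox6b1 held only CCGGAAG. Cox6a1 lies on the minus strand (chr5:115348959-115349208), as do Sdha (chr13:74350241-74350490), Ndufa10 (chr1:92473759-92474008) and Cox8b (chr7:140900447-140900696), and Cox7a1 on the plus strand (chr7:30183921-30184170).
Cox6a1: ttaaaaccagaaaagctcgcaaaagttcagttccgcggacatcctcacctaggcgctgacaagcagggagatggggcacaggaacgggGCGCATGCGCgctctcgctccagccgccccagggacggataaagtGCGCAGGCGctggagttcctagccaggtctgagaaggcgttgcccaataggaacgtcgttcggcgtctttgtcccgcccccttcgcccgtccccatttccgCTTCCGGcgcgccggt
Sdha: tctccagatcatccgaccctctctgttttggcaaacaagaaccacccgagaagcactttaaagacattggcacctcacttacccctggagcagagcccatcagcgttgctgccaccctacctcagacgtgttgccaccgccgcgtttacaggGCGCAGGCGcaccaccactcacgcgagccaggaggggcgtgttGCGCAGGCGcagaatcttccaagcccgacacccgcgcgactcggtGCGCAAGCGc
Ndufa10: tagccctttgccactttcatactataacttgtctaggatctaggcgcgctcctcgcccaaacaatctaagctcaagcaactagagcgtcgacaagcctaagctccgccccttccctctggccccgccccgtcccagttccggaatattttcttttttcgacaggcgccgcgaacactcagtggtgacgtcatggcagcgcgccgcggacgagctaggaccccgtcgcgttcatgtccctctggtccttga
Cox7a1: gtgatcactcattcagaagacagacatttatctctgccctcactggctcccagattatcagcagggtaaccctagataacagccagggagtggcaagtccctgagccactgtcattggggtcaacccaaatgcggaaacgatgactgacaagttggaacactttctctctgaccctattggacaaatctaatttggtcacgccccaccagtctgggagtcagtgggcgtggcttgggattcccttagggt
Cox8b: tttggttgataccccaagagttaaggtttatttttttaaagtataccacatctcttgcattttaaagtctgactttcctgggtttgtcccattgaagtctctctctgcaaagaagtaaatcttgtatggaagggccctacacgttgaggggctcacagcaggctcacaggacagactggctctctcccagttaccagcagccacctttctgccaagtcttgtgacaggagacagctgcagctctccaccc
Cox6a1 had CGCNTGCGC at bases -161 to -153 from the start, on the other strand at -162 to -154 and -117 to -109, and CCGGAAG on the other strand at -16 to -10. Sdha had CGCNTGCGC on the other strand at -98 to -90, -55 to -47 and -10 to -2. The windows of Ndufa10, Cox7a1 and Cox8b held none of these 3 motifs, and in these 250 bases C was followed by G at 26 places in Cox6a1, 21 in Sdha, 22 in Ndufa10, 4 in Cox7a1 and 1 in Cox8b. Over the whole windows of 300 bases the median was 19 places in the windows of the 68 genes, 20 in those of the measured genes and 7 in those of all genes.

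The comparison of MDS/MPN with MDS gave 0 of 78 genes and 0 of 20726 features (0%) past the threshold (limma). Of the 78 genes, 0 had an unadjusted p under 0.05, while 309 features were higher and 613 lower in MDS/MPN at that level. The median difference was 0.47, with 74 genes positive, against -0.02 and 48.7% for all features. Over the 14786 features well above background on every compared array it was 0.06, with 55.8% positive. By complex I to V the genes' medians were 0.46, 0.44, 0.49, 0.49 and 0.49. From the slide 2 WT array, the genes' median was 0.05 and -0.41 on MDS arrays 1 and 2 and 0.75, -0.71 and 0.86 on MDS/MPN arrays 1, 2 and 3. MDS/MPN array 2 thus stood below both MDS arrays while arrays 1 and 3 stood above. Without MDS/MPN replicate 2 the median was 0.97 with 76 positive, 63 of 78 genes had an unadjusted p under 0.05, and the lowest adjusted p was 0.117, so that 0 passed. Without MDS/MPN replicate 1, replicate 3 or MDS replicate 2 it was 0.23, 0.20 and 0.24. The MDS arrays lay in line 1 and the MDS/MPN arrays in line 2 of the slide, so disease and place on the slide cannot be told apart.

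Only Ndufa10 among the 78 genes had MDS/MPN and MDS values that did not overlap, at 4.22, 3.74 and 4.23 against 3.53 and 3.45, where 19.8% of features did so in either direction. Its difference was 0.57 ± 0.34 (adjusted p = 0.992). Among the named genes the largest differences were those of Uqcrq, 0.91 ± 0.71, Cox7a1, 0.73 ± 0.45, and Atp5g3, 0.72 ± 0.56. Uqcrq was at 8.47, 6.55 and 8.62 in MDS/MPN and at 7.28 and 6.66 in MDS. Cox7a2l and Cox6a2 were the named genes with the lowest differences, -0.50 ± 0.51 and -0.19 ± 0.35.

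On slide 1, with 1 KO and 1 WT array labelled 3 months and no replicate, 77 of 78 genes were higher in KO, with a median of 0.81 (quartiles 0.59 and 1.02), against 70.7% higher and a median of 0.31 over the 14298 features detected throughout. At least 2-fold higher were 21 genes, among them Cox6a2, Atp5g1, Uqcrq, Cox6a1, Cox5a, Cox6b2, Cox7a2 and Ndufa3, and 0 were at least 2-fold lower. Of the 14298 features, 1706 were at least 2-fold higher and 605 at least 2-fold lower. Over the 22427 features detected on either array of slide 1, the shares were 12.8% and 12.1%. Cox6a2 was 1.96 higher in log2 level, Atp5g1 1.33 and Uqcrq 1.30, while Cox7a2l was at -0.40, the 1 gene that was lower. With quantile normalization, normexp or the percentile of detected probes, Cox6a2 alone remained at least 2-fold higher, and the median was 0.30, 0.35 and 0.44. The genes' median on the slide 2 pair of the mixed KO and the WT array was 0.06, with 60 of 78 higher. Cox6a2, 1.18 higher, was the 1 gene at least 2-fold apart. Of the 14298 features detected on all arrays, 133 were at least 2-fold higher and 79 at least 2-fold lower. Over the 19580 features detected on either array of this pair, the shares were 4.51% and 4.35%.

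The difference between the KO effects at 9-12 and at 3 months (the former minus the latter) passed for 0 of 78 genes and 0 of 23299 features (0%) (limma), with 0 genes at an unadjusted p under 0.05, and 556 features above and 604 below 0 at that level. Its median over the genes was -0.54, with 6 positive, against -0.23 and 37.3% for all features. Over the 14338 features well above background on every compared array it was -0.25, with 31.7% positive. The direction of the genes' median rests on the time labels: with the deposited value table, whose labels exchange the pairs, it was 0.09 with 48 of 79 positive. The spread of the genes' median was 0.72 (SD). Ndufa4 and Ndufa3 had the lowest values of the named genes, -1.09 ± 1.06 and -1.06 ± 1.11, and Cox7a2l the highest, 0.31 ± 0.97.

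How closely the genes followed each other can be read from their spread over the 10 arrays. The SD of the log2 level had a median of 0.61 over the 78 genes, and 0.19 after the genes' own median was taken off each array, with 73 of 78 lower than before. The same step moved the median SD of the 14298 features from 0.48 to 0.56 and lowered it for 38.6%. The genes were part of the median that was taken off, so their figure is a description and not a test. After the step Cox6b1 kept 0.08 and Sdhb 0.09, and large spreads were those of Cox6a2 (0.84), Ndufa10 (0.56), Cox7a2l (0.54), Uqcrb (0.52), Ndufs1 (0.45) and Sdha (0.41). Sdha and Ndufs1 had small spreads to begin with, 0.26 and 0.28.

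Other lists of mitochondrial and metabolic genes are set beside the respiratory genes on the same arrays. The 77 mitochondrial ribosomal protein genes had medians of 0.75, -0.57 and 0.83 on MDS/MPN arrays 1, 2 and 3, 1.06 on the undetermined, -0.27 on MDS array 2 and 0.65 on the slide 1 KO array. Against the WT array of its own slide, the slide 1 KO array had 0.83 for these genes and 0.81 for the respiratory genes. From the slide 2 WT array, the medians on the same arrays were 0.55, -0.25, 0.63, 0.77, -0.22 and 0.25 for the 13 citrate cycle genes. For the 16 glycolysis genes they were 0.71, -0.37, 0.87, 0.73, -0.19 and 0.34. The 78 cytosolic ribosomal protein genes were at 0.37, -1.03, 0.36, 0.46, -0.06 and 0.69, and unlike the respiratory genes they were 0.53 higher on the slide 1 WT than on the slide 2 WT array. Against its own slide's WT array, the slide 1 KO array had 0.68 for the citrate cycle, 0.40 for glycolysis and 0.17 for the cytosolic ribosome. At 9-12 months 0 genes of any of these 4 lists passed (limma; 1 glycolysis gene had an unadjusted p under 0.05), with medians of 0.31, 0.24, 0.32 and 0.03 and 73 of 77, 11 of 13, 12 of 16 and 44 of 79 positive.

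**Figure D5:**
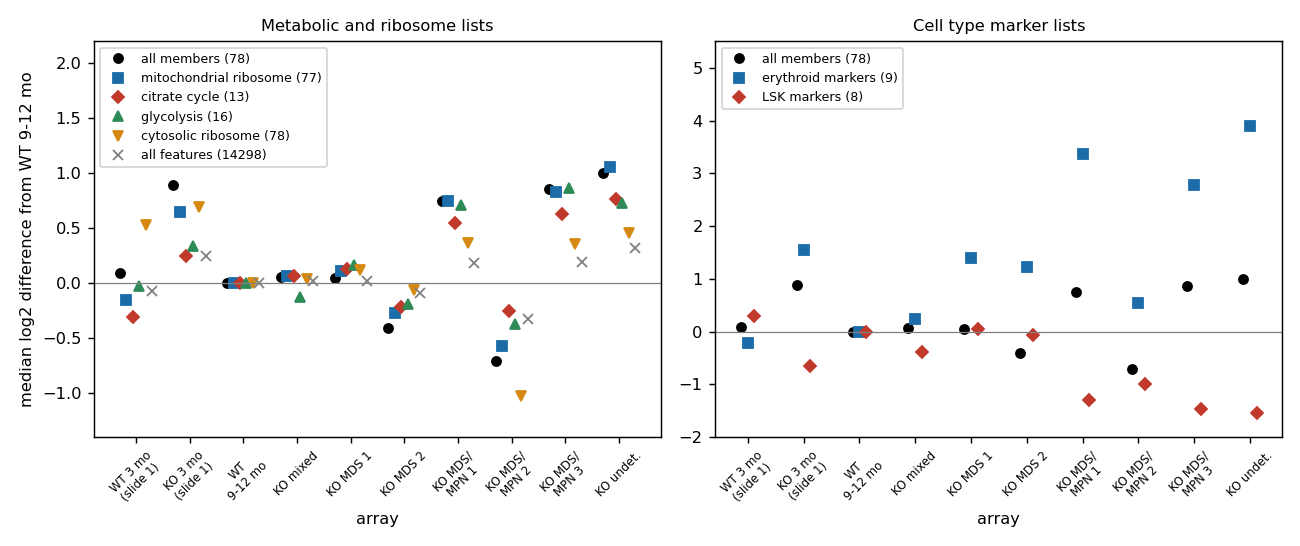
Median log2 difference from the WT array of slide 2 (vertical axes) on each array for lists of metabolic and ribosomal genes (left) and of cell type markers (right), with the 78 respiratory genes in black and the number of genes of each list in brackets. The mitochondrial ribosome lies near the respiratory genes on the slide 2 arrays, and the erythroid markers reach 3.89 and the LSK markers -1.54 on the undetermined array.

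The 5 subunits outside the symbol rule had positive differences at 9-12 months, and 0 passed the test (limma; 0 at an unadjusted p under 0.05, as for the assembly factors and regulators given next). Cox4i1, the common form of subunit 4 of complex IV, was at 8.37 in the slide 2 WT array, with the 6 KO arrays from 7.39 to 9.24 (0.23 ± 0.71), Cyc1, the cytochrome of complex III, differed by 0.49 ± 0.81, Cycs, cytochrome c itself, by 0.44 ± 0.73 and Ndufab1, the acyl carrier protein of complex I, by 0.61 ± 1.02. Cox4i2, known from lung, was near WT (0.06 ± 0.52). Of 44 tested assembly factors, which build the complexes, 30 were positive with a median of 0.13 and 0 passed, and on the single arrays their medians were 0.50, -0.61 and 0.56 on MDS/MPN arrays 1, 2 and 3 and 0.78 on the undetermined array.

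The regulators of mitochondrial biogenesis gave smaller shifts. Of 10 tested at 9-12 months, 5 were positive and 5 were not, and 0 passed in any of the 4 comparisons. The list's median was 0.05, -0.20 and -0.07 on MDS/MPN arrays 1, 2 and 3 and 0.22 on the undetermined array. Ppargc1a, the coactivator PGC-1 alpha, was well above background on 0 arrays and Ppargc1b on 2. Nrf1 differed by 0.33 ± 0.50, Esrra, a nuclear receptor that works with PGC-1, by 0.57 ± 0.62 and Pprc1 by 0.54 ± 0.46, while Gabpa was at -0.08 ± 0.48 and Tfam, which packs mitochondrial DNA and is needed for its transcription, at -0.26 ± 0.44. Tfam was below WT on 5 of 6 KO arrays, from 3.28 to 4.12 with WT at 4.06.

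Of the 22 genes with several probes, the probes gave the same sign for the 9-12 month difference except in Cox7c, where the probe used gave 0.14 and the 3 probes spanned -0.29 to 0.32. On slide 1 the second probes of Ndufb11 and Ndufv3 gave -0.13 and -0.49 where the probes used gave 0.58 and 0.88. These 3 genes were named after their values were seen.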

How the data were processed

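In the deposited scanner files each spot has an intensity (gProcessedSignal). Per the file headers it was made by Feature Extraction 10.7.1.1 and was background-subtracted and detrended within the array but not scaled between arrays; the submitters' processing notes name version 9.1. The authors' deposited value table holds a ratio, that intensity over the 75th percentile of the array, and served as an alternative. Feature flags in the deposited files gave the calls well above background.

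Each array's log2 intensities were centred on their 75th percentile. Control and outlier spots were left out, spots of a probe averaged, and the brightest probe taken for a gene. Probes were named through RefSeq accessions and the RefSeq table of GRCm38.p6 (27656 of 55681 probes). Features well above background on at least 50% of the arrays of a compared group were tested with limma 3.58.1 (R 4.3.3), Benjamini-Hochberg threshold 0.05, groups of 1 array being assumed to vary as the others. The fit was tested on simulated data.

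The members, lists and tests were chosen with earlier results of these data known. Named genes were, from complexes I, III, IV and V, the 2 with the largest and the 2 with the smallest difference at 9-12 months, the Sdh genes, 7 isoform families, 7 core genes, any gene past the threshold, and 12 subunits and regulators outside the symbol rule. Alternatives were 3 other scalings, the value table, 2 filters, the median probe, other eBayes settings, other sets of arrays and leaving out each array. Promoter motifs were counted in RefSeq windows, CGCNTGCGC being taken after a longer form had been counted. Tables used pandas 2.3.3 and numpy 2.4.6 under Python 3.11.15, and figures matplotlib 3.10.9. The number of arrays limits the precision. Values of some genes are not reported here.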

Additional observations from a re-analysis of the deposited data

Results flagged for a closer look

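Over the 6 KO arrays at 9-12 months, 38 sets of values (32 named genes, the median of all genes and those of the 5 complexes) were checked for an array far from the others by Dixon's criterion at the 95% level, and 1 stood out; about 1 set in 20 does so by chance. Cox7a2l, which joins complexes III and IV, was at -1.20 against the WT array on MDS/MPN replicate 2, and its gap to the nearest array was 0.83 of the whole range. The same array had the lowest median of all 78 genes (-0.71), the highest 75th percentile signal (301.7 intensity units) and the largest share of probes well above background (47.5%). The part of these in the value was not tested.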

How the results depend on the processing

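The count of 0 genes past the threshold held in all 4 comparisons under every alternative run, and of the values of 32 named genes none became a call. The genes' median difference ranged over the alternatives other than leaving out 1 array from -0.16 to 0.27 at 9-12 months, 0.21 to 0.47 for MDS/MPN against MDS, 0.16 to 0.46 for every KO against both WT and -0.56 to 0.09 for the effect at 9-12 minus 3 months. With 1 array left out the ranges were 0.12 to 0.46, 0.20 to 0.97, 0.23 to 0.81 and -0.69 to -0.35. The count of all features called was less steady. At 9-12 months, where it was 115, it was 247 with quantile normalization, 212 with the percentile of detected probes, 0 with features well above background on every array, 50 without a filter, 0 with trend and robust eBayes, 182 with the mixed array added and 0 with the KO arrays in the slide line of WT. Leaving out 1 array gave 0 to 215 (0 without MDS replicate 1 or MDS/MPN replicate 3, 4 without MDS replicate 2, 12 without the undetermined array, 215 without MDS/MPN replicate 2). For every KO against both WT, where it was 0, it was 1 with quantile normalization, 3 with the percentile of detected probes and 2 without the slide block, and leaving out 1 array gave 0 to 177 (177 without the slide 1 WT array, 154 without the slide 1 KO array). For the effect at 9-12 minus 3 months, where it was 0, it was 184 with quantile normalization and 2 with the value table. Without the slide 2 WT array or either slide 1 array, the comparison of every KO with both WT rests on 1 slide. The cause of the changes in these counts was not tested. The mean spot signal is not used here, so normexp was run on the median spot signal. No paired analysis was possible because the replicate numbers were given in accession order and pair no samples.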
